A study of Mus musculus with 22 samples.

Results

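The levels of 10 genes of the oxidative stress and metal response (Hmox1, Nqo1, Gclc, Gclm, Txnrd1, Srxn1, Gsr, Mt1, Mt2 and Fth1) were followed in the hearts of 22 mice, out of 15514 genes tested. They were chosen by name: 8 are commonly listed as targets of the transcription factor Nrf2, and Mt1 and Mt2 encode metallothioneins. Probes were assigned to them through their RefSeq accessions, and 14 probes on the array belong to the 10 members. All 10 members passed the filter on dim probes. The mice were female C57BL/6 animals bought at 5 to 7 weeks of age and kept for 1 to 3 weeks before a single dose was instilled into the trachea. Nano-TiO2 mice received 162 µg of titanium dioxide nanoparticles in 40 µl, and control mice received the same volume of dispersant, which was saline with acellular lavage fluid of untreated mice. Both control and nano-TiO2 mice were instilled and killed under Hypnorm and Dormicum anaesthesia, and the series has no group of mice without instillation. Hearts were taken after 1 day (5 control and 5 nano-TiO2 mice) or 28 days (6 control and 6 nano-TiO2 mice), with 1 mouse per array. Heart RNA carried Cy5, and a common reference RNA of 11 mouse cell lines carried Cy3; dyes were never swapped. Each value below is therefore a log2 ratio of heart to reference. Such ratios compare mice for 1 gene but do not rank genes by abundance.

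Nrf2 (gene Nfe2l2) is held in the cytoplasm by Keap1, a substrate adaptor of a Cul3 ubiquitin ligase, and is degraded there. Oxidants and electrophiles modify Keap1, after which Nrf2 reaches the nucleus and, paired with a small Maf protein, binds antioxidant response elements in front of genes for glutathione synthesis, thioredoxin recycling, quinone reduction, and haem and iron handling. Metallothioneins are small cysteine-rich proteins that bind zinc and copper. They are induced through metal response elements by the zinc sensor Mtf1, and also by glucocorticoids and inflammatory cytokines.

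The tissue label reads heart, while the label on RNA extraction speaks of lung. Cardiac genes were high on all arrays, for example Tnni3, cardiac troponin I, at 7.41 to 8.16, and Myh6, the main adult myosin heavy chain, at 4.34 to 5.36. Sftpc and Sftpb, surfactant genes of the lung, exceeded background clearly on 0 of 22 arrays. In Cy5, the share of probes well above background was 32.8% to 52.9% by array, and the number of arrays limits the precision. Several arrays stood apart in genes of neighbouring tissue, given here as marker means relative to the mean of all arrays. Atrial markers were lowest on control day 1 replicate 2 (-3.04), nano-TiO2 day 1 replicate 1 (-3.15) and nano-TiO2 day 28 replicate 1 (-3.04). Of the day 28 controls, replicates 1 and 5 were high in Scgb1a1, a secretory protein of airway club cells (3.55 and 3.13), and replicates 1 and 4 in liver markers (2.40 and 2.98). In such bulk samples, fewer cells of a type and less RNA per cell cannot be told apart.

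None of the 10 members passed the test between nano-TiO2 and control hearts at day 1. The differences ran from -0.10 (Gclm) to 0.22 (Mt2) in log2, 6 of them positive and 4 negative, with a median of 0.045 against 0.014 over all genes tested. The lowest adjusted p among the members was 0.738 (limma, Benjamini-Hochberg over all genes), so 0 of 10 were called, and the share of all genes called was 0%. No member reached an unadjusted p under 0.05 either, a mark that 8.65% of all genes passed. The 2 groups overlapped for each of the 10 members, while 1.7% of all genes had groups that did not overlap.

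None passed at day 28 either. Differences ran from -0.15 (Hmox1) to 0.50 (Txnrd1), with 5 positive, 5 negative and a median of 0.019 against -0.0055 over all genes. The lowest adjusted p was 0.660, for Fth1. Again 0 of 10 members were called against 0% of all genes, 0 had an unadjusted p under 0.05 against 7.6% of all genes, and 0 had groups without overlap against 0.122%. The change of the nano-TiO2 difference from day 1 to day 28 was called for 0 of 10 members (0% of all genes). By its brightest kept probe, no member had an unadjusted p under 0.05 for this change (14.7% of all genes).

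**Figure D1:**
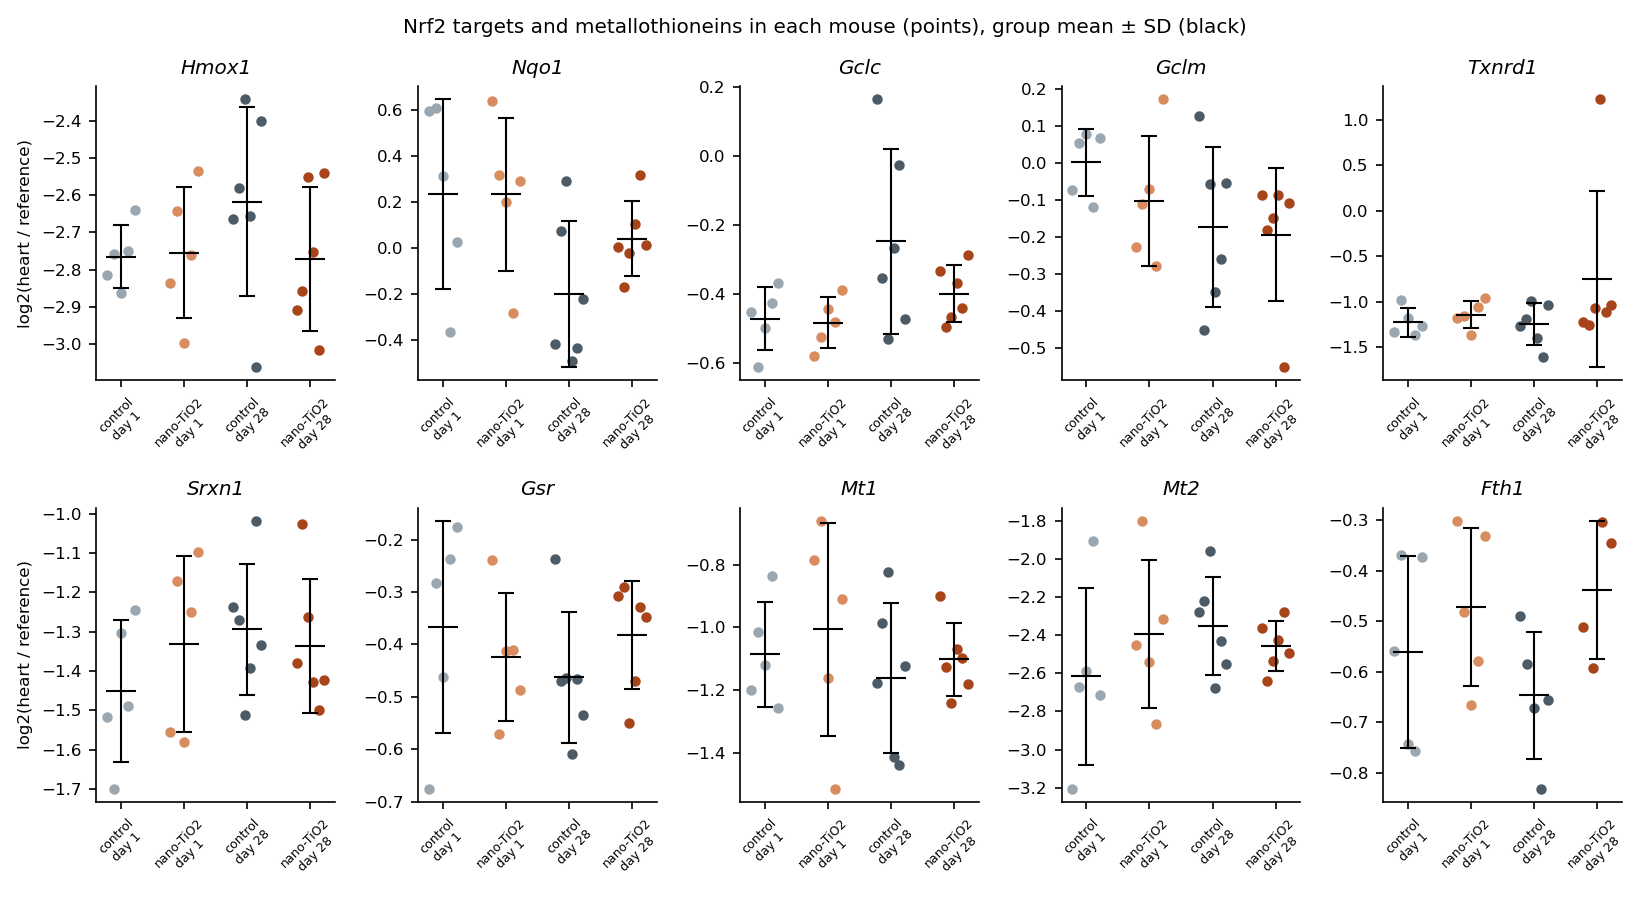
Log2 ratio of heart to reference for each member (vertical axis, one panel per gene, each with its own scale) in the 4 groups (horizontal axis). Points are mice, and black marks are the group mean ± SD; the nano-TiO2 and control points of the same day overlap in every panel, and 1 day 28 nano-TiO2 mouse lies far above the rest for Txnrd1.

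**Figure D2:**
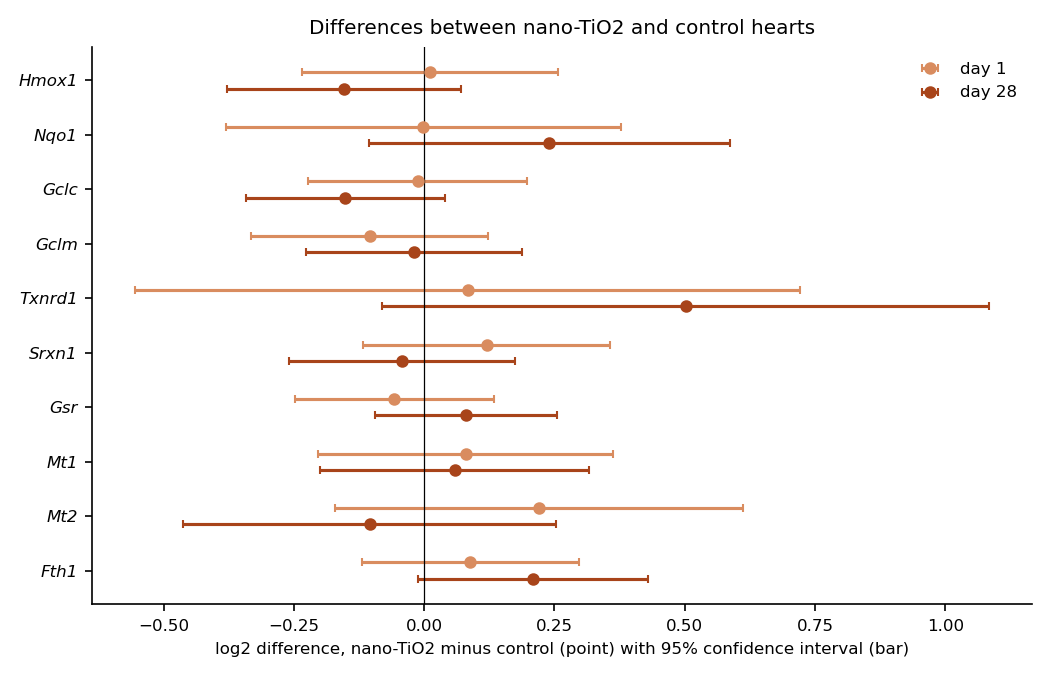
Difference between nano-TiO2 and control hearts for each member at day 1 and day 28, in log2 (horizontal axis), with the 95% confidence interval of the limma fit. Each of the 20 intervals includes 0, and those of Txnrd1 are the widest.

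Hmox1 (chr8:75093618-75100593, GRCm38.p6) encodes haem oxygenase 1, which breaks haem down to biliverdin, carbon monoxide and iron. It lay below the reference on all 22 arrays, with a mean log2 ratio of -2.72 ± 0.19 (SD, n = 22). This is 15.1% of the reference after background correction and normalization, not a share of raw signal. The raw intensities had medians of 179.5 in Cy5 and 2698.75 in Cy3. At day 1 the 5 controls read -2.86, -2.81, -2.76, -2.75 and -2.64, and the 5 nano-TiO2 hearts -3.00, -2.84, -2.76, -2.64 and -2.53. The treated mice lay on both sides of the controls. The difference was 0.011 ± 0.12 (SE, limma adjusted p = 0.982), and its 95% interval allowed 0.850-fold to 1.19-fold of the control ratio. The ratios carry an offset of 50 added to both channels, beside Hmox1 Cy5 intensities of 108.5 to 331. Whether this narrowed the Hmox1 differences and intervals was not tested. At day 28 the controls ran from -3.06 to -2.34 (median -2.62) and the nano-TiO2 hearts from -3.02 to -2.54 (median -2.81). The difference of -0.15 ± 0.11 (adjusted p = 0.762) was smaller than the SD of either group, and its interval allowed 0.769-fold to 1.05-fold. Where the background was fitted on all spots, the sign of this difference turned, to 0.13.

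Nqo1 (chr8:107388225-107403205), a quinone reductase often used as a readout of Nrf2, was the member closest to the reference level. Its mean was 0.063 ± 0.34 (SD, n = 22). The day 1 controls read -0.37, 0.026, 0.31, 0.59 and 0.61, and the day 1 nano-TiO2 hearts -0.28, 0.20, 0.29, 0.32 and 0.64. Both groups thus spanned nearly the same range, each with 1 mouse below 0. Their difference was -0.0013 ± 0.18 (SE; adjusted p = 0.999). The day 28 controls ran from -0.49 to 0.29 (median -0.32), and the nano-TiO2 hearts from -0.17 to 0.32 (median 0.0074). The difference of 0.24 ± 0.17 had an adjusted p of 0.760. It was -0.0076 without control replicates 1, 4 and 5, the 3 day 28 arrays high in airway or liver transcripts, which read -0.42, -0.49 and -0.44. The part of these tissues in the Nqo1 values was not tested.

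Glutathione synthesis starts with glutamate-cysteine ligase, whose catalytic subunit is Gclc and whose modifier subunit is Gclm. For Gclc (chr9:77754535-77794489) the day 1 controls read -0.61, -0.50, -0.45, -0.43 and -0.37, and the nano-TiO2 hearts -0.58, -0.53, -0.48, -0.45 and -0.39. These 2 groups coincided within 0.013 in their means. The difference of -0.013 ± 0.10 (SE; adjusted p = 0.977) changed sign under several alternatives. At day 28 the controls spread from -0.53 to 0.16 (median -0.31; SD 0.27), and the nano-TiO2 hearts from -0.50 to -0.29 (median -0.41; SD 0.082). The spread of the controls came from replicates 1 (0.16) and 5 (-0.025), which are the 2 arrays high in Scgb1a1. The day 28 difference was -0.15 ± 0.092 (adjusted p = 0.719) with all mice and 0.054 without the 3 arrays high in airway or liver transcripts. Gclm (chr3:122245487-122267215) was well above background on 5 of 22 arrays only (2 control and 2 nano-TiO2 arrays at day 1, 1 control array and 0 nano-TiO2 arrays at day 28), so its ratios lie near the limit of the measurement. Its differences were -0.10 ± 0.11 at day 1 and -0.020 ± 0.10 at day 28. Set against the dimmest signals that counted as above background, the day 28 controls were at least 1.00-fold higher than the nano-TiO2 hearts, a bound that gives no difference.

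Gsr (chr8:33653238-33698162), the reductase that regenerates glutathione from its oxidised form, was the least variable member, with a mean of -0.41 ± 0.14 (SD, n = 22). Its group means were -0.37 ± 0.20 (control day 1, n = 5), -0.42 ± 0.12 (nano-TiO2 day 1, n = 5), -0.46 ± 0.12 (control day 28, n = 6) and -0.38 ± 0.10 (nano-TiO2 day 28, n = 6). The differences were -0.057 ± 0.092 (SE) at day 1 and 0.080 ± 0.084 at day 28. At day 28, 2 further Gsr probes gave 0.11 and 0.070, and at day 1 they gave -0.088 and 0.061.

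Txnrd1 (chr10:82833951-82897724), cytosolic thioredoxin reductase, had the largest difference among the members at day 28, and 1 spot made most of it. The day 1 controls read -1.37, -1.33, -1.27, -1.18 and -0.98, and the nano-TiO2 hearts -1.36, -1.18, -1.16, -1.06 and -0.96. These overlapped throughout, with a difference of 0.084 ± 0.31 (SE; adjusted p = 0.949). The day 28 controls ran from -1.61 to -0.99 (median -1.23), and 5 of the 6 nano-TiO2 hearts from -1.26 to -1.04. The remaining one, replicate 4, read 1.23. The single Txnrd1 spot of that array had a Cy5 intensity of 16958.5, against 253 to 1010 on the other 21 arrays, and a Cy3 intensity of 15545.5, against 2392 to 3248. The reference RNA, which is the same on all arrays, was thus also brighter at that spot. The scanner software set no flag on it. With this mouse the day 28 difference was 0.50 ± 0.28 (adjusted p = 0.688), and without it 0.11 ± 0.10 (adjusted p = 0.848). All groups share 1 estimate of the spread, so this spot also widens the day 1 interval, which allowed 0.681-fold to 1.65-fold.

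**Figure D3:**
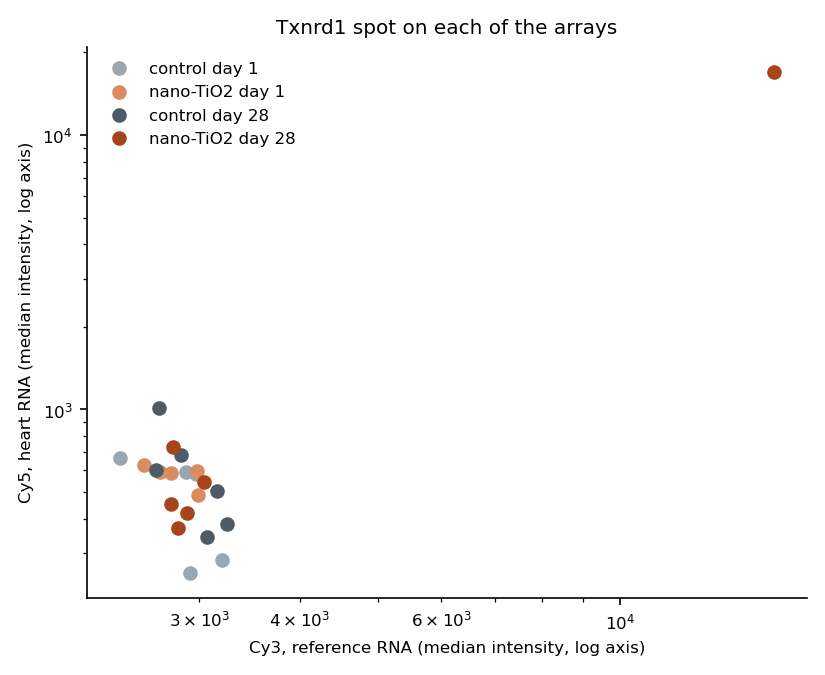
Median intensity of the Txnrd1 spot in the reference channel (Cy3, horizontal, log axis) and in the heart channel (Cy5, vertical, log axis), with 1 point per array coloured by group. One nano-TiO2 day 28 array, at 15545.5 and 16958.5, lies apart from the other 21 in both channels.

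Srxn1 (chr2:152105524-152111376) encodes sulfiredoxin, which repairs over-oxidised peroxiredoxins. Its brightest probe averaged -1.35 ± 0.18 (SD, n = 22). Group means were -1.45 ± 0.18 and -1.33 ± 0.22 in day 1 controls and nano-TiO2 hearts (n = 5 each), and -1.29 ± 0.17 and -1.34 ± 0.17 at day 28 (n = 6 each). The differences of 0.12 ± 0.11 (SE; adjusted p = 0.768) and -0.042 ± 0.10 (adjusted p = 0.939) were within the spread of mice. The sign depended on the probe: 2 dimmer probes of Srxn1 gave -0.062 and -0.11 at day 1, and 0.042 and 0.18 at day 28. The last of these, from a probe well above background on 6 arrays, had an unadjusted p of 0.043 (limma). The same probe gave 0.29 for the change of the nano-TiO2 difference between days (limma, unadjusted p = 0.026). For control hearts between days it gave -0.19 (limma, unadjusted p = 0.038).

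Fth1 (chr19:9980600-9985111), the heavy chain of ferritin, which stores iron as an oxide, had the lowest p of the members at day 28. Its spot was flagged on 3 arrays (control day 28 replicate 1, nano-TiO2 day 28 replicates 2 and 4), which left 19 values. Day 28 controls read -0.83, -0.67, -0.66, -0.58 and -0.49, and nano-TiO2 hearts -0.59, -0.51, -0.35 and -0.30. The treated hearts lay at the upper end, with overlap between -0.59 and -0.49. The difference was 0.21 ± 0.11 (SE; adjusted p = 0.660), or 1.16-fold with an interval of 0.991-fold to 1.35-fold. At day 1 it was 0.088 ± 0.10 (adjusted p = 0.812). Within the 3 scan days the day 28 difference ran from -0.023 to 0.42, and 2 of the 3 were positive. After the flags, the -0.023 of scan day 2 rests on 1 mouse per group. The 0.035 of scan day 1 rests on 1 nano-TiO2 mouse. Centring each array on its median in place of loess gave -0.042. Ferritin heavy chain has processed copies in the genome, and the probe's specificity among them was not tested.

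Mt1 (chr8:94178883-94180327) and Mt2 (chr8:94172618-94173567), the broadly expressed metallothioneins, lie next to each other. Since they varied together among mice (below), the 250 bases in front of the starts that the RefSeq promoter table uses are shown, on GRCm38.p6, plus strand. For Mt1 that start lies inside the gene span given above, and 206 of the 250 bases fall within the span; for Mt2 0 do. Capitals mark matches on either strand to TGCNCNC and to TGACNNNGC, the core of the antioxidant response element. TGCNCNC is a looser form of the metal response core, TGCRCNC (R is A or G), so some matches do not have that core. No match of one pattern overlaps a match of the other in these 2 windows.
Mt1, chr8:94178839-94179088: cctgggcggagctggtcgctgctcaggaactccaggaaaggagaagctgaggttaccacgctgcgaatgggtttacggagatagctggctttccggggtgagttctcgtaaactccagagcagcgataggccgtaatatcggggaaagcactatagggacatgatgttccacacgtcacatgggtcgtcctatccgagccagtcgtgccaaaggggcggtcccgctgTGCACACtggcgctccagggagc
Mt2, chr8:94172368-94172617: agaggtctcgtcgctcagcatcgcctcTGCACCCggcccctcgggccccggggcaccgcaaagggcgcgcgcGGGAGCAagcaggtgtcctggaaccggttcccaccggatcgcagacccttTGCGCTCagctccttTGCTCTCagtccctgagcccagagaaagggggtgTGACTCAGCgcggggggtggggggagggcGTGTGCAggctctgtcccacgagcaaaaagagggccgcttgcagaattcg
The Mt1 window holds 1 match to the looser metal response pattern, TGCACAC, and the Mt2 window 5, along with 1 antioxidant response core, TGACTCAGC. In the Mt2 window GGGAGCA and TGCTCTC match the looser form only. The counts cover these 250 bases alone. Because the 2 windows lie differently against their genes, the counts do not compare the 2 promoters. Over all 32851 RefSeq promoter windows cut to the same length, 44.4% hold at least 1 match to the looser metal response pattern and 1.28% at least 4. An antioxidant response core is held by 10.2%. Windows were listed for 7 of the 10 members; those of Hmox1, Gclc and Gsr are not shown. The antioxidant response core was also found in the Gclm window (GCACCGTCA), of which 70 bases lie inside the gene span, and in 1 of the 3 Txnrd1 windows (GCTTTGTCA), which lies wholly inside it, both on the minus strand. It was not found in the windows of Nqo1, Srxn1 and Fth1, which says only that these letters are not within these 250 bases.

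For Mt1 the day 1 controls read -1.26, -1.20, -1.12, -1.01 and -0.84, and the nano-TiO2 hearts -1.51, -1.16, -0.91, -0.79 and -0.66. The nano-TiO2 mice reached both above the highest control and below the lowest. The difference was 0.080 ± 0.14 (SE; adjusted p = 0.887). At day 28 the controls ran from -1.44 to -0.82 (median -1.15) and the nano-TiO2 hearts from -1.24 to -0.90 (median -1.11), a difference of 0.058 ± 0.12 (adjusted p = 0.929). Without the 3 day 28 controls high in airway or liver transcripts it was -0.12.

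Mt2 varied more among mice than Mt1, with an SD of 0.32 over all mice against 0.22. The day 1 controls read -3.20, -2.71, -2.67, -2.59 and -1.91, and the nano-TiO2 hearts -2.86, -2.54, -2.45, -2.32 and -1.80. Both ends of the range were wide apart in either group. The difference of 0.22 ± 0.19 (SE; adjusted p = 0.738) was the largest of the day 1 values, at 1.17-fold with an interval of 0.888-fold to 1.53-fold. Leaving out 1 mouse at a time moved it between 0.072 and 0.40. The mean of glucocorticoid-responsive genes was 0.50 higher in the same nano-TiO2 mice than in the controls, and its part in the Mt2 difference was not tested. The day 28 groups overlapped too, with controls from -2.68 to -1.96 (median -2.35), nano-TiO2 hearts from -2.64 to -2.28 (median -2.46) and a difference of -0.10 ± 0.17 (adjusted p = 0.906).

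Across the 22 mice, Mt1 and Mt2 rose and fell together whatever the group. With group means subtracted, Pearson's r was 0.764 (permutation p = 7.0e-05, two-sided, adjusted 0.00042 over 6 relations) and Spearman's rho 0.758 (permutation p = 1.0e-04, adjusted 0.00060). Without the 2 mice farthest from the Mt1 median r was 0.668, and within the 3 scan days it was 0.983 (n = 6), 0.839 (n = 8) and 0.823 (n = 8). Mt2 also followed the mean of 12 measured glucocorticoid-responsive genes (such as Fkbp5, Per1 and Tsc22d3), with r = 0.539 (permutation p = 0.0088, adjusted 0.026) and rho = 0.435 (permutation p = 0.043, adjusted 0.13). Without 2 mice r was 0.388, and within scan days 0.706, 0.589 and 0.568, so the rank relation did not pass and the linear one leaned on those mice.

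**Figure D4:**
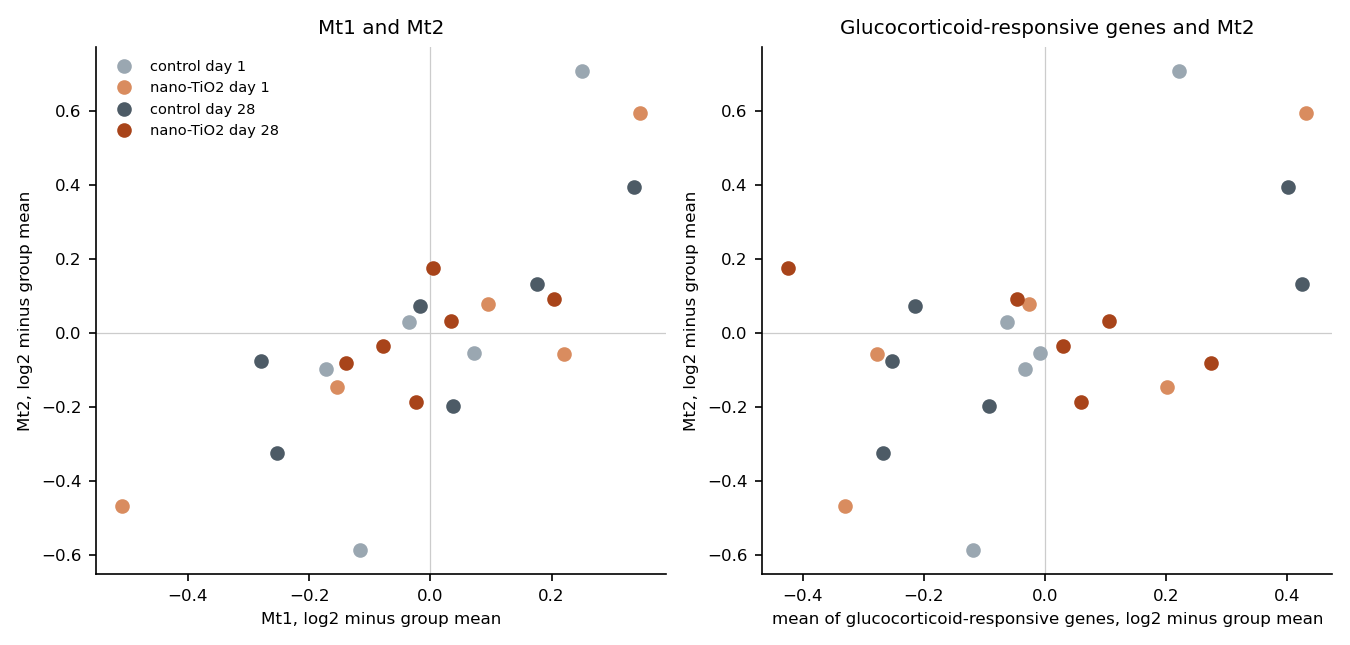
Log2 values of Mt2 with group means subtracted (vertical axes) against Mt1 (left) and against the mean of the glucocorticoid-responsive genes (right), 1 point per mouse coloured by group. The points on the left follow a line (r = 0.764), and those on the right scatter more widely (r = 0.539).

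None of the other 4 relations tested passed. Gclc and Gclm, the subunits of 1 enzyme, gave r = 0.278 (permutation p = 0.21, adjusted 0.42), Txnrd1 and Srxn1 r = -0.196 (0.42, adjusted 0.49), Hmox1 and Mt2 r = 0.178 (0.43, adjusted 0.49), and Hmox1 with the macrophage marker mean r = 0.157 (0.49, adjusted 0.49). Spearman's rho for these 4 was 0.211, -0.149, 0.170 and 0.169, with adjusted permutation p of 0.51 in each case. Without the 2 mice farthest from the median of the first measure, r was 0.154, -0.037, 0.072 and 0.253. The bright Txnrd1 spot is among those left out for Txnrd1 and Srxn1. The group means subtracted there were still those of all mice. For Txnrd1 in day 28 nano-TiO2 hearts that mean was -0.75 with the spot and -1.14 without it. The r of -0.037 is therefore not free of the spot. Within scan days their r changed sign, for instance from -0.300 to 0.759 for Gclc and Gclm. As a description, the 28 pairs among the 8 Nrf2 targets had a median r of 0.039, with 14 of 28 positive. They ran from -0.479 (Nqo1 with Gclc) to 0.579 (Nqo1 with Fth1). Pairs with Gclm share the limit of its dim probe, and pairs with Txnrd1 include its bright spot.

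The genes whose log2 ratios were most like Hmox1 over the 22 arrays were Gmppa (r = 0.888), Serinc3 (0.809), Rab2b (0.765), Selenow (0.760) and Vps16 (0.757). Those most like Mt1 were Sdsl (0.793), Atp5mpl (0.777), Ak6 (0.761), Slc66a1 (0.760) and Slc38a7 (0.750). For Mt2 they included Nt5dc1 (0.703), Ucp3 (0.696), Mt1 (0.685) and Pot1a (0.659). These are the highest of many correlations, and they share the arrays.

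Between the 2 times, members were compared within each treatment. The days are different mice, instilled at separate times or of separate age. The comparison cannot tell either from time after instillation, so words such as rose and fell describe group means only. In control hearts, 0 of 10 members were called from day 1 to day 28, against 10.5% of all genes (1625 of 15514). By the brightest kept probe, the mark of an unadjusted p under 0.05, which 25.4% of all genes passed, was reached by Nqo1 and Gclc. Nqo1 differed by -0.43 ± 0.18 (SE; adjusted p = 0.118) and Gclc by 0.22 ± 0.097 (adjusted p = 0.144). Both moved toward 0 without the 3 day 28 controls high in airway or liver transcripts, to -0.19 and 0.019. Nqo1 was called without control day 1 replicate 4 (-0.58, adjusted p = 0.034). With the log ratios of the scanner software Nqo1 (-0.64), Gclc (0.34) and Hmox1 (0.37) were called. In nano-TiO2 hearts 0 of 10 members were called between days (0% of all genes), and the mark of an unadjusted p under 0.05 was reached by 0 (4.51% of all genes). Members ranged there from -0.19 (Nqo1) to 0.40 (Txnrd1). The Txnrd1 value rests on the bright spot of replicate 4: the other 5 nano-TiO2 hearts of day 28 averaged -1.14, and the 5 of day 1 also -1.14.

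The wider pathway was read from 7 lists of 92 other genes, 83 of them measured: regulators, glutathione, thioredoxins and peroxiredoxins, NADPH supply, detoxification, haem and iron, and metallothionein and zinc. Between nano-TiO2 and control hearts 0 of 83 were called at day 1 and 0 of 83 at day 28, with medians of 0.015 and 0.013. At an unadjusted p under 0.05 there were 9 and 12, beside 8.65% and 7.6% of all genes. From each list, the values of the 2 leading genes by p follow, with adjusted p of 0.476 or more at day 1 and 0.635 or more at day 28.

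At day 1 Hamp, the iron hormone hepcidin, differed by 1.40 ± 0.49 (SE). Only 1 of 5 controls of that day gave a Hamp signal well above background, against 4 of 5 treated mice, so the control level is near the limit of the measurement in each contrast that uses it. Slc39a8, a zinc and manganese importer, cleared background in 0 of 5 controls and 4 of 5 treated mice, and was at least 1.55-fold higher in the nano-TiO2 hearts, a bound on a difference that was not called. The pentose phosphate enzyme Taldo1 differed by 0.40 ± 0.19, the glutathione transferase Gstm5 by 0.41 ± 0.16 and Ugdh, which makes UDP-glucuronate, by 0.41 ± 0.17. Prdx4, a peroxiredoxin of the endoplasmic reticulum, differed by 0.22 ± 0.097 and Hfe, a regulator of iron uptake, by 0.23 ± 0.16. Below 0 were Idh2 (-0.34 ± 0.14), Gsto1 (-0.36 ± 0.19), Cul3, the ligase scaffold (-0.25 ± 0.10), the zinc exporter Slc30a1 (-0.23 ± 0.094), Akr1b3 (-0.20 ± 0.10), Prdx3 (-0.18 ± 0.11) and Rbx1 (-0.13 ± 0.087). The other 2 Rbx1 probes gave 0.13 and 0.082. Marker means of the same mice were higher in the nano-TiO2 hearts by 1.58 for adipocyte, 1.39 for atrial and 1.14 for smooth muscle genes, and their part in these values was not tested.

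At day 28 Nfe2l2 itself differed by -0.22 ± 0.097 (SE), and its second probe by -0.15. Cul3 differed by 0.23 ± 0.091. The smallest p belonged to Gstt2, a glutathione transferase, at -0.29 ± 0.086. Also below 0 were Tkt, a transketolase (-1.10 ± 0.45), Hamp (-1.10 ± 0.45; clear of background in 4 of 6 treated mice), Gsta3 (-0.86 ± 0.32), Slc39a8 (-0.37 ± 0.24; 5 of 6), Ugdh (-0.35 ± 0.16), Prdx4 (-0.26 ± 0.089), the epoxide hydrolase Ephx1 (-0.24 ± 0.10), the haem transporter Slc48a1 (-0.21 ± 0.11) and Mt3, another metallothionein (-0.21 ± 0.098). The second Slc48a1 probe gave 0.062. Idh2, which makes NADPH in mitochondria (0.30 ± 0.12), and Prdx5 (0.24 ± 0.15) lay above 0. Gsta3 was at 0.0012 and Prdx5 at -0.013 without the 3 day 28 controls high in airway or liver transcripts. Marker means of nano-TiO2 minus control hearts were -1.38 for liver, -1.27 for Scgb1a1, -1.01 for adipocyte and -0.89 for atrial genes, and their part was not tested.

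In control hearts, 18 of the 83 pathway genes (21.7%) were called between day 1 and day 28, beside the 10.5% of all genes, with 11 up and 7 down. By list these were 3 of 6 for NADPH supply, 2 of 8 for metallothionein and zinc, 3 of 13 for thioredoxins and peroxiredoxins, 4 of 18 for glutathione, 3 of 14 for detoxification, 2 of 14 for haem and iron, and 1 of 10 for regulators. Of the NADPH supply list, G6pdx (0.87 ± 0.26) and Tkt (1.80 ± 0.47), which itself makes no NADPH, rose, while Idh2 fell. Others that rose detoxify or conjugate (Mgst1 1.15 ± 0.29, Akr1b8 0.94 ± 0.23, Ugdh 0.74 ± 0.17, Gstm2 0.35 ± 0.077), or carry metals and amino acids (Slc39a8, Slc3a2 0.50 ± 0.11). Hamp (2.39 ± 0.47, from day 1 controls of which 1 of 5 was well above background), the peroxiredoxin Prdx4 (0.54 ± 0.093) and Mt3 (0.36 ± 0.10) also rose. Slc39a8 was not well above background on any day 1 control, and its day 28 level was at least 1.97-fold higher. Those that fell included Cul3 (-0.37 ± 0.096), the mitochondrial genes Idh2 (-0.49 ± 0.13) and Prdx5 (-0.55 ± 0.15), and Mgst3 (-0.52 ± 0.15), Sesn1 (-0.45 ± 0.11) and Nqo2 (-0.31 ± 0.092). The probes of a gene did not always move alike: another Slc3a2 probe gave -0.011, and 2 more Sesn1 probes gave -0.028 and -0.19.

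Tissue markers moved with these genes in the same control mice: from day 1 to day 28 the mean was higher by 2.47 for adipocyte, 2.29 for atrial, 1.72 for smooth muscle, 1.30 for mesothelium, 1.18 for Scgb1a1 (1 of 9 lung markers measured), 0.94 for liver and 0.66 for macrophage markers, and differed by -0.34 for cardiomyocyte markers. The adipocyte means were -1.72 to -0.66 on day 1 and -0.17 to 2.06 on day 28, over 9 of 10 listed markers measured (Lep stayed near background on all arrays). The atrial means were -3.04 to 0.033 and 0.68 to 1.29, over 7 of 7. Their part in the 18 calls was not tested. None of the 18 calls was left with slide as a fixed block (0 of all genes called, 2807 at an unadjusted p under 0.05) or without the 3 day 28 controls high in airway or liver transcripts (7 of all genes called), although all 18 kept their sign. In nano-TiO2 hearts 0 of the 83 were called between days, and 5 had an unadjusted p under 0.05 (4.51% of all genes). The differences between the control and nano-TiO2 time courses were called for 0 of 83 genes (21 reached an unadjusted p under 0.05, beside 14.7% of all genes) and were largest for Hamp (-2.50 ± 0.67, adjusted p = 0.119), with the same limit of its day 1 controls.

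**Figure D5:**
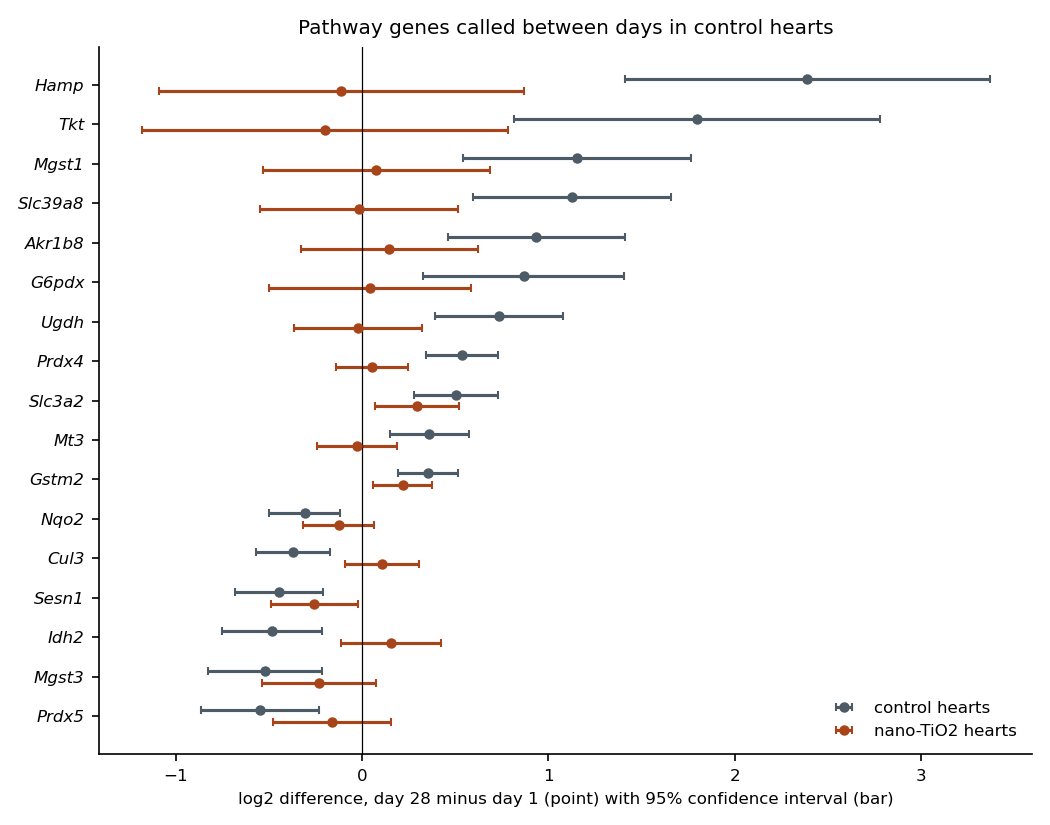
Difference between day 28 and day 1 in log2 (horizontal axis), with 95% confidence intervals, for 17 of the 18 pathway genes called in control hearts, shown for control and for nano-TiO2 hearts. In control hearts the values run from -0.55 (Prdx5) to 2.39 (Hamp), and in nano-TiO2 hearts none of these 17 was called. Slc39a8 is drawn at its fitted value, although 0 of 5 day 1 controls were well above background for it (1 of 5 for Hamp).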

How the data were processed

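Per the labels, heart RNA of each mouse (250 ng, RNA integrity number of at least 7) was hybridised in Cy5 against Universal Mouse Reference RNA in Cy3 on Agilent 2-colour arrays, 9 slides scanned on 3 days. The deposited scanner files give median spot and local background intensities, not subtracted or normalized. They also hold a log10 ratio made, per the file headers, by Agilent Feature Extraction 10.7.3.1, while the submitters' processing notes name 9.5.3.1. The authors' deposited series matrix is on a log2 scale whose method is not given in the sources used here; its column medians were -0.0362 to -0.0207, and it correlated at 0.992 to 0.998 with log2 Cy5/Cy3 ratios made with loess and no background subtraction, which settles its scale, centring and direction.

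Background was corrected with normexp (offset 50, fitted without spots marked for uneven background), arrays were normalized by loess, and flagged spots (0.306%) were left out, in R 4.3.3 with limma 3.58.1. The filter kept 19287 probes, those with Cy5 well above background on 5 or more of 22 arrays; 23374 probes matched 16535 symbols through RefSeq accessions (GRCm38.p6), and the brightest kept probe stood for a gene. The limma fit had 4 group means and eBayes, with p adjusted by Benjamini-Hochberg over 15514 genes at 0.05. Of these, 10486 had a symbol, and each accession without a symbol was counted as a gene of its own. Shares of all genes include such accessions, and whether they repeat genes was not tested. Marker means are of log2 ratios centred per gene. The 6 relations across mice were tested with 100000 permutations. The limma fit was tested on simulated gene values with known changes. That test did not cover background correction, normalization, choice of probes or the relations across mice.

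The members, lists and named genes were chosen with earlier results of these data known. Named are all members, pathway genes called in a contrast or otherwise among the 2 smallest p of a list at day 1 or day 28, and the 5 genes most like Hmox1, Mt1 and Mt2; 1 pathway gene and 1 gene like Mt2 are not reported here. Replicate numbers follow accession order and pair nothing. Alternatives covered background, normalization, filters, probe summary, blocks, weights and leaving out mice; leaving out 3 arrays low in atrial or 3 high in airway or liver markers was chosen after seeing the data.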

Additional observations from a re-analysis of the deposited data

Results flagged for a closer look

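Of the 40 sets of values (10 members in 4 groups), 2 held a mouse far from the rest of its group, where chance flags about 1 set in 20. Txnrd1 read 1.23 in nano-TiO2 day 28 replicate 4, against -1.04 in the nearest mouse of its group, and both channels of that spot were bright. Gclm read -0.55 in nano-TiO2 day 28 replicate 5, against -0.18 in the nearest mouse, on a probe that stayed near background on all arrays of that group.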

How the results depend on the processing

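No member was called between nano-TiO2 and control hearts at either day under any alternative run. The signs of small member differences did change. With the background fitted on all spots the values were -0.089 for Hmox1 and 0.026 for Nqo1 at day 1, and 0.13 for Hmox1 and 0.084 for Srxn1 at day 28. Plain background subtraction gave 0.026 for Gclc and 0.014 for Nqo1 at day 1. The log ratios of the scanner software gave -0.13 for Fth1, 0.068 for Gclc, 0.0054 for Gclm and -0.022 for Hmox1 at day 1, and 0.017 for Srxn1 at day 28. The series matrix gave -0.058 for Hmox1 at day 1 and -0.021 for Mt1 at day 28. Median centring, which moved the median of all genes to 0.17 at day 1 and -0.096 at day 28, gave 0.19 for Gclc, 0.20 for Gsr, 0.21 for Nqo1, 0.23 for Rbx1, 0.15 for Akr1b3 and 0.13 for Prdx3 at day 1, and -0.042 for Fth1, -0.070 for Gsr and -0.11 for Mt1 at day 28. The median member difference was then 0.336 and -0.0890. Cy5 alone gave 0.058 for Gclc and 0.0082 for Nqo1 at day 1 and 0.034 for Srxn1 at day 28, and array weights 0.018 for Gclc. Nqo1 at day 1 was 0.0011 with scaling between arrays, 0.056 with slide as a fixed block and 0.00071 as a random one. Means of the kept probes gave -0.019 and 0.059 for Srxn1 at day 1 and day 28 and 0.027 for Rbx1 at day 1. Without the 3 day 28 controls high in airway or liver markers the day 28 values were 0.054 for Gclc, -0.12 for Mt1, -0.0076 for Nqo1, 0.036 for Srxn1, 0.0012 for Gsta3 and -0.013 for Prdx5. The cause of these changes was not tested.

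Leaving out 1 mouse at a time moved Gclc between -0.048 and 0.013, Hmox1 between -0.044 and 0.071, Mt1 between -0.0070 and 0.21 and Nqo1 between -0.15 and 0.13 at day 1, and Srxn1 at day 28 between -0.10 and 0.013. It gave 0 to 1 members called between days in control hearts, and 0 to 2 pathway genes called for the change of the nano-TiO2 difference between days (Idh2 without control day 28 replicate 6, Hamp without nano-TiO2 day 1 replicate 1, Gstt2 and Hamp without nano-TiO2 day 28 replicate 3). In control hearts between days, 3 members were called with the scanner log ratios (Nqo1, Gclc and Hmox1), 1 with Cy5 alone (Gclc), 1 with array weights (Nqo1) and 1 without control day 1 replicate 4 (Nqo1). Of the other pathway genes, 35 were called with the scanner log ratios (17 of the 18), 1 with the background fitted on all spots, and 0 with median centring, with slide as a fixed block or without the 3 day 28 controls. Without the 3 arrays low in atrial markers 1 pathway gene, Hamp (-2.56, adjusted p = 0.048), was called for the change of the nano-TiO2 difference. Cy5 signal over background limits Gclm, whose Cy5 intensities were 73 to 102. Next dimmest in Cy5 were Hmox1 (108.5 to 331), Gclc (114 to 301.5), Nqo1 (122 to 400) and Gsr (161.5 to 358). These were well above background on all 22 arrays. Whether low signal together with the normexp offset narrowed their differences and intervals was not tested. Intervals of the 9 members other than Txnrd1 were up to 0.78 wide in log2 at day 1 and 0.71 at day 28; those of Txnrd1 (1.28 and 1.17) include its 1 bright spot.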
